A study of Mus musculus with 27 samples.

Results

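The axon guidance ligands and receptors are described here across ribosome-bound RNA of 2 striatal neuron types, with and without the histone methyltransferase G9a, after cocaine or saline. The genes were chosen by name: every symbol of the array annotation that begins with Sema3 to Sema7, Plxn, Epha, Ephb, Efna, Efnb, Slit1 to Slit3, Robo or Unc5, together with Nrp1, Nrp2, Dcc and Ntn1. This gave 68 of the 18193 gene symbols on the array, of which 53 were tested and 15 were not. The prefixes also took in Unc50, which was tested, and Unc5cl and Plxna4os1, which were not, and these are not guidance ligands or receptors.

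Guidance cues steer growing axons and migrating neurons, and many stay expressed in the adult, where they act on synapses and dendritic spines. Semaphorins signal through plexins, and most secreted class 3 semaphorins need a neuropilin as co-receptor, while Sema3e can bind plexin D1 directly. Ephrins signal through Eph receptor tyrosine kinases, Slits repel through Robo receptors, and netrin-1 attracts through Dcc and repels through Unc5 receptors. In the mouse striatum, Sema3e and plexin D1 are known as a ligand and receptor pair that shapes the thalamic input to D1 neurons.

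The series profiled striatum of male mice aged 2-5 months on a mixed C57BL/6 and 129/Sv background, using a GFP-tagged ribosomal protein (L10a) whose ribosomes were captured with anti-GFP antibodies (TRAP). All mice carried 2 floxed copies of G9a (Ehmt2) and the tag under either Drd1 or Drd2, the genes of the dopamine receptors that mark the 2 kinds of medium spiny neuron (MSN), the projection neurons of the striatum. The G9a mutants also carried Cre under the same receptor gene (Drd1-Cre or Drd2-Cre) and the controls carried no Cre, so mutation and Cre transgene cannot be told apart. Tissue was taken 2 h after the last of 8 injections of cocaine, at 20 mg/kg/day, or of saline. There were 4 D1 mutant cocaine, 3 D1 mutant saline, 4 D1 control cocaine and 2 D1 control saline arrays. The D2 arrays were 4 mutant cocaine, 3 mutant saline, 4 control cocaine and 3 control saline. The design text counts mice, so the replicates are mice and p-values measure the spread between them. One array, D2 mutant cocaine replicate 4, is a mutant in its title and genotype but a control in its source name, and was kept as a mutant.

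G9a RNA itself was lower in every mutant array than in every control array of the same neuron type. Ehmt2 levels were 8.03 to 9.37 (log2) in D1 mutants and 9.95 to 10.74 in D1 controls, and 8.68 to 9.38 in D2 mutants and 10.67 to 11.01 in D2 controls. The array with the conflicting source name, at 8.96, lay among the D2 mutants and below every D2 control. The alternative below that counts it as a control therefore goes against its Ehmt2 level. All 8 tested markers of D1 MSN were higher in D1 controls than in D2 controls, with a median log2 difference of 2.79, and all 6 tested markers of D2 MSN were lower, with a median of -3.74. The choroid plexus transcript Ttr stood high in 3 arrays (D1 mutant saline replicate 3, D1 control cocaine replicate 3 and D2 control cocaine replicate 3). RNA quality was read from the Gapdh and Actb controls as their 3' minus 5' difference, and it passed none of 5 exact permutation tests between groups (smallest raw p = 0.380, 2-sided). In RNA captured from striatal tissue rather than from single cells, fewer cells of a type and less RNA per cell cannot be told apart.

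Values below are levels on the log2 scale, which compare arrays for the same gene and not one gene with another. A gene was tested when it exceeded a level of 6 on at least 3 arrays, and it is said to rise or fall, or to be higher or lower, when limma's p, adjusted over all 12017 genes tested by the Benjamini-Hochberg method, was under 0.05. Of the 53 tested members, 46 lay above 6 on all 27 arrays, Nrp1 and Sema4c on 26, Nrp2 on 24, Sema3b and Sema4g on 19, Unc5d on 14 and Sema3c on 8. The untested ones were the ephrins Efna1 and Efna4, the receptors Epha1, Epha2, Epha3, Ephb4, Plxnb3, Robo2, Robo3 and Robo4, the semaphorins Sema3d, Sema3g and Sema5a, and Unc5cl and Plxna4os1. None of them exceeded 6 on more than 1 array. The highest of them, Sema5a, reached 6.64 on D1 mutant saline replicate 1.

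D1 and D2 neurons differed in about as large a share of the guidance genes as of all genes. In mutants, 18 members were higher in D1 than in D2 neurons, 7 were lower and 28 did not pass, a share of 47.2% against 42.4% of all genes tested (16.6% higher and 25.8% lower). In controls, 12 were higher in D1, 7 were lower and 34 did not pass, a share of 35.8% against 29% of all genes (11.9% higher and 17.1% lower). In both genotypes, 9 members were higher in D1 neurons and 5 were lower. The median log2 difference over the 53 members was 0.07 in mutants, against -0.04 over all genes, and 0.00 in controls, against -0.03 over all genes.

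The D2-enriched side was led by a repulsive ligand and a semaphorin co-receptor. A netrin receptor, Unc5d, also lay on this side, but its D1 levels allow only a bound. Sema3e, the secreted ligand of plexin D1, had levels of 8.11 to 9.28 in D1 mutants (median 9.04) and 10.18 to 10.36 in D2 mutants (median 10.24). In controls its levels were 7.70 to 9.0 in D1 neurons (median 8.72) and 9.69 to 10.09 in D2 neurons (median 9.94). D1 and D2 arrays did not overlap in either genotype. The log2 difference, D1 minus D2, was -1.32 ± 0.16 in mutants (SE, adjusted p = 3.78e-07) and -1.27 ± 0.17 in controls (adjusted p = 3.19e-06). The 2 lowest D1 arrays, at 8.11 and 7.70, were 2 of the 3 with high Ttr, and without those 3 arrays the difference was -1.15 in mutants and -1.16 in controls. The other 3 Sema3e probe sets gave differences of -0.91 to -1.20 in controls.

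**Figure D1:**
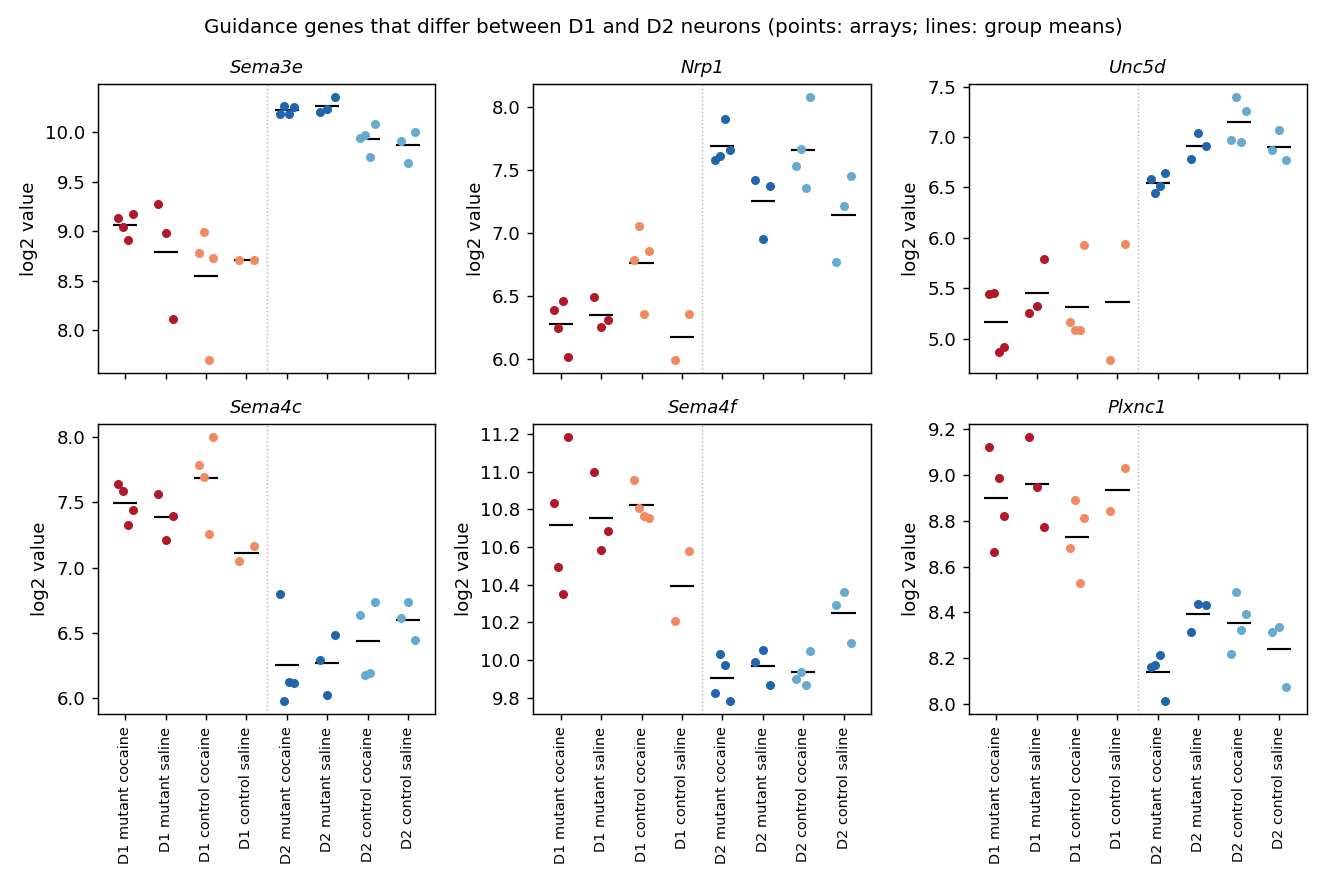
Levels (log2) of 6 guidance genes on each array, by group, with D1 groups to the left of the dotted line and D2 groups to the right. Points are arrays and lines are group means. Sema3e, Nrp1 and Unc5d lie lower in D1 groups, and Sema4c, Sema4f and Plxnc1 lie higher.

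The neuropilins, co-receptors for the secreted class 3 semaphorins, went opposite ways. Nrp1, which binds Sema3a, had levels of 6.01 to 6.49 in D1 mutants (median 6.31) and 6.96 to 7.91 in D2 mutants (median 7.58), with no overlap. In controls they were 5.99 to 7.05 in D1 neurons (median 6.57) and 6.77 to 8.08 in D2 neurons (median 7.45), and the groups overlapped. The log2 difference of Nrp1 was -1.16 ± 0.13 in mutants (adjusted p = 9.48e-08) and -0.94 ± 0.13 in controls (adjusted p = 1.18e-05). Of its other 3 probe sets, 2 gave differences of -0.72 and -0.77 in controls and the third gave -0.01. Nrp2, which binds Sema3f, was higher in D1 neurons by 0.31 ± 0.10 in mutants (adjusted p = 0.0111) and 0.38 ± 0.10 in controls (adjusted p = 0.00696), with overlapping levels of 6.21 to 7.02 in D1 controls and 5.80 to 6.32 in D2 controls.

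Unc5d, a repulsive netrin receptor, passed the filter through D2 neurons alone. Its levels were 4.87 to 5.79 in D1 mutants (median 5.33) and 6.45 to 7.04 in D2 mutants (median 6.64). In controls they were 4.79 to 5.94 in D1 neurons (median 5.13) and 6.77 to 7.40 in D2 neurons (median 6.97). Every D1 array lay below the level of 6 used as the floor and every D2 array above it, so the D1 level has only a bound. The mean level was 5.31 in D1 mutants and 6.73 in D2 mutants, and 5.34 in D1 controls and 7.03 in D2 controls. Set against the floor of 6, Unc5d was at least 1.66-fold lower in D1 than in D2 mutants and at least 2.03-fold lower in D1 than in D2 controls. Its limma calls belong to fitted differences of -1.42 in mutants (adjusted p = 1.03e-07) and -1.68 in controls (adjusted p = 2.92e-08). These fits use D1 values below the floor, so the p-values do not measure the bounds.

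The other members on this side differed less than Sema3e and Nrp1. Epha7, a receptor for the ephrin-A ligands, differed by -0.72 in mutants and -0.53 in controls (adjusted p = 2.06e-05 and 0.00198). Its levels in mutants, 9.49 to 9.93 in D1 neurons and 10.32 to 10.59 in D2 neurons, did not overlap. The ligand Slit3 differed by -0.31 in mutants and -0.33 in controls, with adjusted p of 0.00584 and 0.00888. The netrin receptor Unc5c had a difference of -0.02 in mutants, which was not called, and of -0.28 in controls (adjusted p = 0.0177).

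Of 12 tested members of Sema4 to Sema7, the transmembrane and GPI-anchored semaphorins, 6 were higher in D1 than in D2 mutants and 5 in D1 than in D2 controls, and none was lower. Over all genes tested 16.6% were higher in D1 mutants and 11.9% in D1 controls, and the 12 were not tested as a group. Sema4c had levels of 7.21 to 7.64 in D1 mutants (median 7.44) and 5.98 to 6.80 in D2 mutants (median 6.12). Its levels in controls were 7.05 to 8.0 in D1 neurons and 6.17 to 6.74 in D2 neurons, so neither genotype overlapped. The log2 difference of Sema4c was 1.18 ± 0.13 in mutants (adjusted p = 7.88e-08) and 0.88 ± 0.14 in controls (adjusted p = 3.03e-05).

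Sema4f had levels of 10.35 to 11.18 in D1 mutants and 9.78 to 10.05 in D2 mutants, with no overlap, and 10.21 to 10.96 in D1 controls and 9.87 to 10.36 in D2 controls, which overlapped. It was higher by 0.80 ± 0.10 in mutants (adjusted p = 9.06e-07) and by 0.51 ± 0.11 in controls (adjusted p = 0.000787). Sema4a was higher by 0.47 in both genotypes (adjusted p = 0.000208 in mutants and 0.000702 in controls). Sema6d, a ligand of plexin A1, was higher by 0.32 in mutants and 0.53 in controls (adjusted p = 0.0207 and 0.00122). Sema4g had a difference of -0.04 in mutants, which was not called, and was called higher in D1 controls (0.28 in the fit, adjusted p = 0.0093). Only 1 of 7 D2 control arrays exceeded the floor of 6, however. Set against the floor, Sema4g was at least 1.11-fold higher in D1 than in D2 controls. Sema7a, the GPI-anchored ligand of plexin C1, had a difference of -0.27 in controls that just missed the threshold (adjusted p = 0.0504).

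Of 8 tested plexins, 3 were higher in D1 than in D2 mutants and 2 in D1 than in D2 controls, and none was lower. Beside these counts, 16.6% of all genes tested were higher in D1 mutants and 11.9% in D1 controls, and the 8 were not tested as a group. Plxnc1, the plexin that binds Sema7a, had levels of 8.67 to 9.16 in D1 mutants (median 8.95) and 8.01 to 8.44 in D2 mutants (median 8.21). In controls its levels were 8.53 to 9.03 in D1 neurons (median 8.83) and 8.08 to 8.49 in D2 neurons (median 8.32), and neither genotype overlapped. The log2 difference of Plxnc1 was 0.66 ± 0.08 in mutants (adjusted p = 4.3e-07) and 0.53 ± 0.08 in controls (adjusted p = 3.92e-05). Plxna2, a receptor for transmembrane class 6 semaphorins, did not pass in mutants (0.26, adjusted p = 0.0616). In controls its levels of 8.65 to 8.90 in D1 neurons and 8.04 to 8.55 in D2 neurons did not overlap, with a difference of 0.46 (adjusted p = 0.00487). The secreted Sema3c was called higher in D1 neurons (adjusted p = 0.0374 in mutants and 0.0127 in controls), but it lay near or below the floor of 6 and no fold is given. Its levels were 5.44 to 6.55 in D1 mutants and 5.51 to 5.90 in D2 mutants, where no array exceeded 6. In controls they reached 6.40 in D1 neurons (median 6.24) and 6.13 in D2 neurons (median 5.68), where 1 of 7 arrays exceeded 6.

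Among Eph receptors and ephrins, the other calls in controls were smaller than that of Epha7. Epha10, an Eph receptor that lacks kinase activity, was among the 18 members higher in D1 mutants and was higher by 0.33 in controls (adjusted p = 0.00206). Ephb3 was also among those 18, as was Plxna1, and was higher by 0.23 in controls (adjusted p = 0.0336). Epha5 was higher by 0.38 in controls (adjusted p = 0.0431), but its other 3 probe sets gave 0.07, -0.03 and 0.02. Efnb3, a transmembrane ligand of EphB receptors, differed by -0.30 in controls (adjusted p = 0.0024), with levels of 9.83 to 10.11 in D1 neurons and 10.05 to 10.58 in D2 neurons.

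The mutants showed calls that controls did not, though a call in one genotype alone is no test of a difference between them. Plxnd1, the receptor of Sema3e, was higher in D1 mutants than in D2 mutants by 0.93 ± 0.17 (adjusted p = 8.57e-05), against 0.23 ± 0.18 in controls (adjusted p = 0.361). Sema3f, a ligand of Nrp2, differed by 0.66 in mutants (adjusted p = 0.000437), but another of its probe sets gave 0.04. Sema6b differed by 0.60 with no overlap (8.33 to 8.96 in D1 mutants and 7.89 to 8.24 in D2 mutants, adjusted p = 2.41e-05). The receptors Robo1 and Unc5a differed by 0.55 and 0.52 (adjusted p = 0.0196 and 0.000119), the call of Robo1 being lost with the mean of its probe sets (0.14, adjusted p = 0.22), and the ligand Ntn1 by 0.45 (adjusted p = 8.8e-05). Sema3b and Sema6c were higher in D1 mutants by 0.33 and 0.31 (adjusted p = 0.0327 and 0.0406); with the mean of all probe sets of each gene the differences were 0.04 and 0.14, neither called (adjusted p = 0.791 and 0.146). Epha4 was lower in D1 mutants by -0.48 (adjusted p = 0.00035) and Sema3a by -0.19 (adjusted p = 0.0441).

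**Figure D2:**
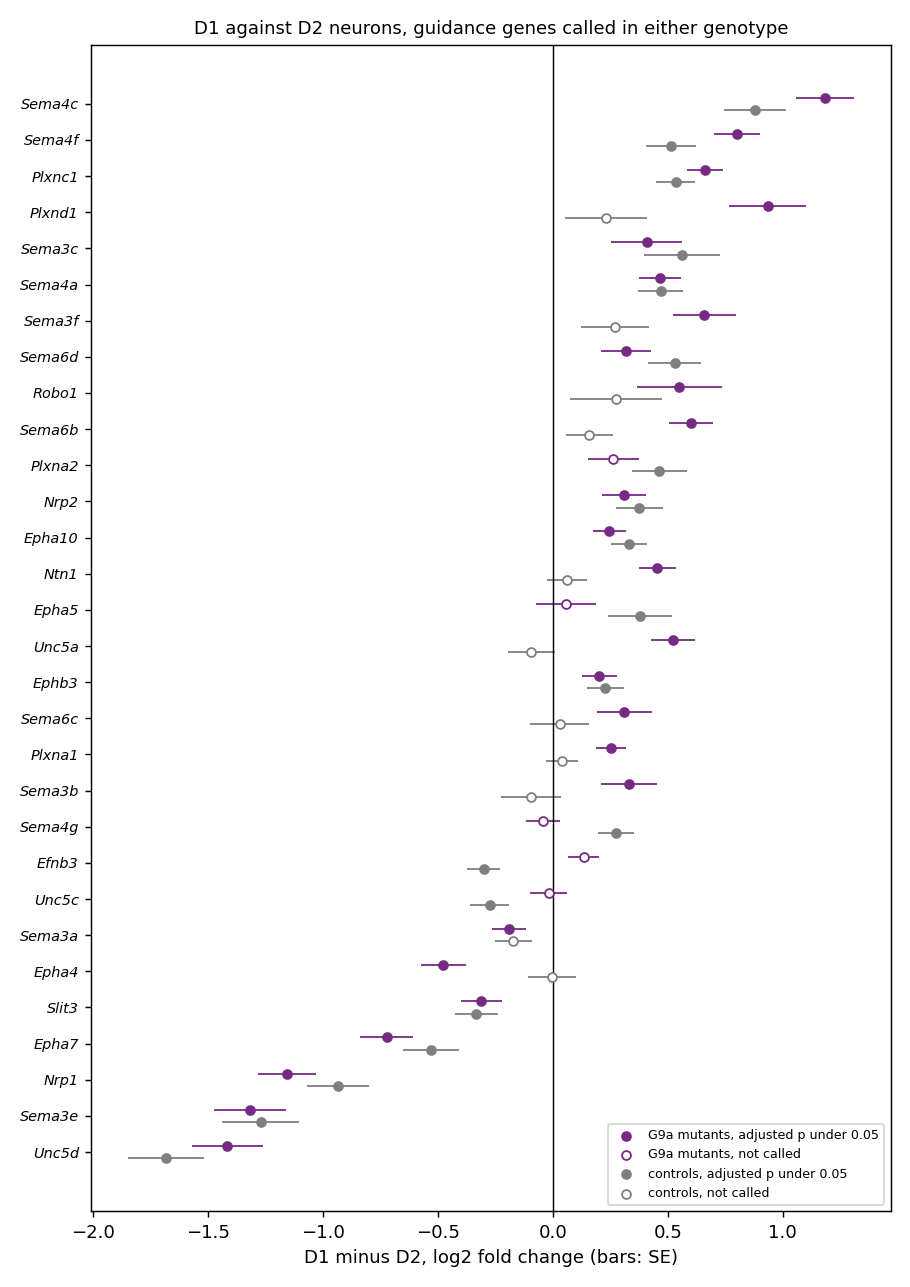
Log2 fold change of D1 over D2 neurons (x axis, bars are SE) for the 30 members called in either genotype, with mutants drawn above controls for each gene. Filled points passed the adjusted p threshold. Sema3e and Nrp1 lie far to the left in both genotypes and Sema4c far to the right. The points of Unc5d and Sema3c, and the control point of Sema4g, rest mostly on levels at or below 6 in 1 neuron type.

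Several of the smaller calls between neuron types were lost when 1 array or another was left out. In mutants, Sema3a lost its call in 12 of the 27 fits that left out 1 array (highest adjusted p 0.111, without D1 mutant saline replicate 3), Sema3c in 9 (0.11, without D1 mutant saline replicate 1), Sema3b in 7 (0.114, without D1 mutant saline replicate 2), Sema6c in 6 (0.155, without D2 mutant saline replicate 3), Sema6d in 2 (0.0957) and Nrp2 in 1 (0.0535), both without D1 mutant saline replicate 1. In controls, leaving out D1 control saline replicate 2 left Nrp2 at 0.34 (adjusted p = 0.0549), Sema4g at 0.24 (0.0717), Slit3 at -0.29 (0.0694), Epha5 at 0.27 (0.274) and Ephb3 at 0.16 (0.25), and leaving out D1 control saline replicate 1 left Sema3c at an adjusted p of 0.0658 and Unc5c at -0.25 (0.0876). Epha5 lost its call in 9 of these fits and Ephb3 in 5.

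Markers of other cells also differed between the preparations. The summed level of the 2 tested cholinergic interneuron markers of 6 listed, Lhx8 and Slc18a3, was 64.4 to 74.2 in D1 controls and 208 to 505 in D2 controls on the linear scale, and both were called lower in D1. Of 8 tested oligodendrocyte markers of 10 listed, 6 were lower in D1 controls, and their summed level was 3017 to 4015 in D1 controls and 2921 to 5634 in D2 controls. Both tested cortical excitatory neuron markers of 5 listed, Nrn1 and Neurod6, were higher in D1 neurons, with a median difference of 1.92 in mutants and 2.01 in controls. Their summed level was 259 to 961 in D1 mutants and 170 to 243 in D2 mutants, and 85.3 to 565 in D1 controls and 50.7 to 114 in D2 controls. Of 5 tested astrocyte markers of 8 listed, 2 were higher in D1 controls and none in D1 mutants. The part of the cholinergic and cortical markers in the guidance gene differences was not tested. With the mean of 13 glial markers, oligodendrocyte and astrocyte, as a covariate, 15 members were called between D1 and D2 mutants in place of 25. The share of all genes called in that fit is not given here, so the drop is not read as a result about the members. Among the calls lost were those of Epha4 (-0.27, adjusted p = 0.171), Sema3f (0.50, 0.088), Ntn1 (0.32, 0.056), Nrp2 (0.21, 0.336) and Slit3 (-0.32, 0.0928). Those of Sema3a (-0.17, adjusted p = 0.327), Sema3b (0.31, 0.257), Sema6c (0.11, 0.716) and Sema3c (adjusted p = 0.503) were lost too.

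Sema3e and its receptor Plxnd1 were set side by side because they are a known ligand and receptor pair and because they differed in which comparison they were called. Their RefSeq promoter windows, from 250 bases before to 50 bases after a transcript start, are given 5′ to 3′ on the gene's strand in build GRCm38.p6, with GC boxes (GGGCGG or its reverse complement CCGCCC) in capitals. The window of Plxnd1 is chr6:115994956-115995255 on the minus strand and that of Sema3e is chr5:14025026-14025325 on the plus strand.
Plxnd1: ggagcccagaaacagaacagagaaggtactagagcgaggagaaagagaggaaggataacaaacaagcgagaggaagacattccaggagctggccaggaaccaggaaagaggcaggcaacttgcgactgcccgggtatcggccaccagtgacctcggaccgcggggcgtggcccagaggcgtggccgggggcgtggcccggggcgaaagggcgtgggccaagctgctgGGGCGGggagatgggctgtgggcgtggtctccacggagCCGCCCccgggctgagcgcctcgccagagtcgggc
Sema3e: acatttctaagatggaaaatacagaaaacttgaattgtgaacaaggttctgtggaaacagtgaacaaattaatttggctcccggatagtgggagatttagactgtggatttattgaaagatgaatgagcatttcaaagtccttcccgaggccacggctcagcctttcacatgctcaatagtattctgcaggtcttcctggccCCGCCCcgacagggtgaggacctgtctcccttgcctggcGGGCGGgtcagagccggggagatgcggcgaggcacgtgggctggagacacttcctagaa
The Plxnd1 window held 23 CpG dinucleotides and 2 GC boxes, and the Sema3e window held 11 CpG and 2 GC boxes. Over 73 windows of 57 members, the median number of CpG was 19, against 7 over all 32841 promoter windows. A GC box stood in 53 of the 73 member windows (72.6%), against 35.67% of all windows. The TATA box TATAAA, in 13.62% of all windows, and the cyclic AMP response element TGACGTCA, in 1.79%, were searched on both strands and neither was present in these 2 windows. The E-box CACGTG, in 7.153% of all windows, was present in the Sema3e window and not in that of Plxnd1. These matches describe the letters only.

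Loss of G9a in D1 neurons changed 6 of the 53 guidance genes, 5 upward and 1 downward. The other 47 did not pass. This was a share of 11.3% against 4.22% of all genes tested (3.1% up and 1.12% down), and the median log2 change was 0.01 over the members and 0.01 over all genes. In D2 neurons 13 members passed, 4 upward and 9 downward, a share of 24.5% against 12.2% of all genes (8.41% up and 3.82% down). The median log2 change there was -0.04 over the members and 0.02 over all genes, and 40 members did not pass. Of the 15 members called in either neuron type, Sema3a, Ephb1 and Sema4a rose in both and Epha10 fell in both. The share of all genes called in both was not counted. Among these shared calls, only those of Sema3a held in both neuron types under every alternative.

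Sema3a, a secreted repellent that signals through neuropilin-1 and class A plexins, rose in both neuron types. Its levels were 9.02 to 9.46 in D1 mutants (median 9.20) and 8.52 to 8.84 in D1 controls (median 8.72). They were 9.31 to 9.51 in D2 mutants (median 9.39) and 8.61 to 9.14 in D2 controls (median 8.97). Mutant and control arrays did not overlap in either neuron type. The log2 change was 0.48 ± 0.08 in D1 (adjusted p = 0.000264) and 0.50 ± 0.08 in D2 neurons (adjusted p = 4.04e-05). The call held under every alternative in both neuron types, and the other 2 probe sets gave changes of 0.28 to 0.42. Its co-receptor Nrp1 did not pass, with changes of -0.16 in D1 and 0.07 in D2 neurons.

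Ephb1, an EphB receptor tyrosine kinase, rose by a similar amount in both. Its levels were 10.04 to 10.27 in D1 mutants (median 10.09) and 9.69 to 9.96 in D1 controls (median 9.79), with no overlap. In D2 neurons they were 9.92 to 10.23 in mutants (median 10.07) and 9.23 to 9.94 in controls (median 9.67), with an overlap at the edge. The log2 change was 0.34 ± 0.08 in D1 (adjusted p = 0.0079) and 0.38 ± 0.07 in D2 neurons (adjusted p = 0.000642). Without D1 control saline replicate 2 the D1 call was lost (0.31, adjusted p = 0.0692), as was the D2 call with the glial covariate (0.27, adjusted p = 0.12).

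**Figure D3:**
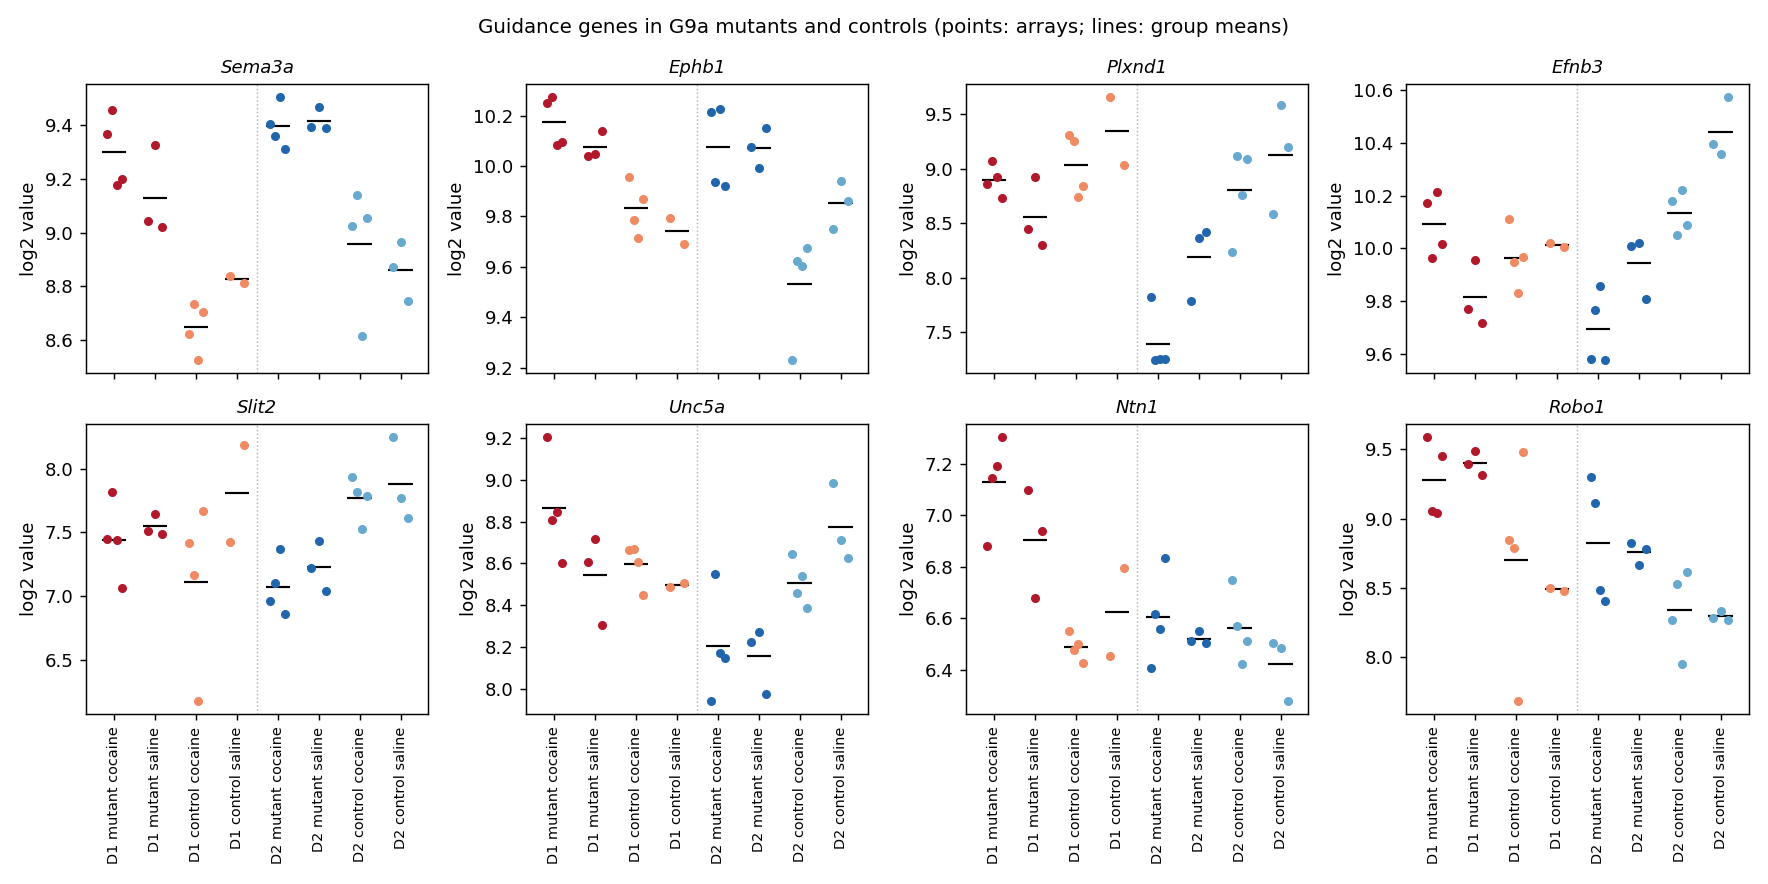
Levels (log2) of 8 guidance genes on each array, by group, with D1 groups to the left of the dotted line and D2 groups to the right, and mutants to the left of controls. Points are arrays and lines are group means. Sema3a is higher in mutants of both neuron types without overlap, and Efnb3 and Slit2 are lower in D2 mutants without overlap.

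Plxnd1 had the largest fall among the members in D2 neurons. Its levels were 7.24 to 8.42 in D2 mutants (median 7.79) and 8.23 to 9.58 in D2 controls (median 9.09), with an overlap through the single control array at 8.23. The log2 change was -1.17 ± 0.17 (adjusted p = 1.73e-05), and it stayed called under every alternative, between -1.50 with the glial covariate and -0.99 with the array of conflicting source name counted as a control. In D1 neurons the levels were 8.30 to 9.07 in mutants (median 8.86) and 8.74 to 9.66 in controls (median 9.14), and the change of -0.47 ± 0.18 did not pass (adjusted p = 0.198). The difference between the 2 neuron types, -0.70 ± 0.25 (D2 minus D1), did not pass either (adjusted p = 0.208). It passed with array weights, at -0.88 (adjusted p = 0.03). Its ligand Sema3e changed by 0.29 in D1 and 0.34 in D2 neurons, neither called (adjusted p = 0.489 and 0.168), although its D2 mutant and D2 control arrays did not overlap. Without the 3 arrays with high Ttr, Sema3e was called in both, at 0.32 (adjusted p = 0.012) in D1 and 0.31 (adjusted p = 0.0028) in D2 neurons, and in D2 also with array weights (0.35, adjusted p = 0.013) and without D1 control cocaine replicate 3 (0.34, adjusted p = 0.0444).

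Efnb3 fell in D2 neurons alone, and the effect differed between the neuron types. Its levels were 9.58 to 10.02 in D2 mutants (median 9.81) and 10.05 to 10.58 in D2 controls (median 10.22), with no overlap. In D1 neurons they were 9.72 to 10.22 in mutants (median 9.96) and 9.83 to 10.11 in controls (median 9.99). The log2 change was -0.47 ± 0.07 in D2 (adjusted p = 1.58e-05) and -0.04 ± 0.07 in D1 neurons (adjusted p = 0.906). The effect in D2 minus that in D1 neurons was -0.43 ± 0.10 (adjusted p = 0.028).

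Unc5a, a netrin receptor, was the other member whose response differed. Its levels were 7.94 to 8.55 in D2 mutants (median 8.17) and 8.38 to 8.99 in D2 controls (median 8.62), overlapping. In D1 neurons they were 8.31 to 9.20 in mutants (median 8.72) and 8.45 to 8.67 in controls (median 8.56). The log2 change was -0.46 ± 0.10 in D2 (adjusted p = 0.00182) and 0.16 ± 0.10 in D1 neurons (adjusted p = 0.58), and their difference was -0.62 ± 0.14 (adjusted p = 0.0301). These 2 made up 3.77% of the 53 members, against 0.99% of all genes tested (0.657% positive and 0.333% negative). Both calls of a difference were lost with the glial covariate, though the estimates were not smaller. They were -0.46 ± 0.12 for Efnb3 (adjusted p = 0.082) and -0.68 ± 0.17 for Unc5a (adjusted p = 0.068). Both were also lost with D2 mutant cocaine replicate 4 counted as a control, at -0.36 for Efnb3 (adjusted p = 0.35) and -0.57 for Unc5a (adjusted p = 0.16). Leaving out 1 array ended the Efnb3 difference in 5 fits and the Unc5a difference in 8, with the highest adjusted p (0.0851 and 0.0977) without D1 control saline replicate 1.

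The ligand Slit2 and its receptor Robo1 were called in different neuron types, but the difference between the neuron types was called for neither. Slit2 had levels of 6.86 to 7.43 in D2 mutants (median 7.10) and 7.53 to 8.24 in D2 controls (median 7.79), without overlap, and fell by 0.67 on the log2 scale (-0.67 ± 0.17, adjusted p = 0.0104). The other 2 Slit2 probe sets gave -0.14 and -0.16, and the call was lost with D2 mutant cocaine replicate 4 counted as a control (-0.54, adjusted p = 0.1). Robo1 had levels of 9.04 to 9.58 in D1 mutants (median 9.40) and 7.68 to 9.48 in D1 controls (median 8.64), overlapping through 1 control array, and rose by 0.75 ± 0.20 (adjusted p = 0.0279). In D2 neurons Robo1 changed by 0.47 and was not called (adjusted p = 0.103). Its other 2 probe sets gave 0.33 and -0.07 in D1 neurons, the mean of all its probe sets was not called (0.34, adjusted p = 0.0512), and 6 of the fits without 1 array lost the call (highest adjusted p 0.126, without D1 control saline replicate 1).

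Netrin-1 rose in D1 neurons while its receptor Dcc was not called anywhere. Ntn1 had levels of 6.68 to 7.30 in D1 mutants (median 7.10) and 6.43 to 6.80 in D1 controls (median 6.49), overlapping at the edge, and rose by 0.46 ± 0.09 (adjusted p = 0.00107). The call held under every alternative in which Ntn1 was tested, though the second Ntn1 probe set gave 0.08. In D2 neurons Ntn1 changed by 0.07 (adjusted p = 0.645). The difference between the neuron types, -0.39 (D2 minus D1), did not pass for Ntn1 (adjusted p = 0.133). Dcc had levels of 7.38 to 8.10 in D1 mutants and 7.19 to 8.15 in D1 controls, and 7.39 to 8.04 in D2 mutants and 7.52 to 8.12 in D2 controls. Its changes were -0.04 ± 0.13 in D1 and -0.11 ± 0.12 in D2 neurons (adjusted p = 0.946 and 0.598).

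The remaining calls were smaller than 0.5 on the log2 scale. Sema4a rose by 0.34 in D1 (adjusted p = 0.0454) and by 0.34 in D2 neurons (adjusted p = 0.013). With its other probe set the changes were 0.38 in D1 (adjusted p = 0.0324) and 0.24 in D2 neurons, the latter not called (adjusted p = 0.108). The D1 call was also lost with median centring (0.31, adjusted p = 0.0827) and with the RNA quality covariate (0.33, adjusted p = 0.0632). Sema4g was called higher in D2 mutants (0.26, adjusted p = 0.0203), but only 1 of 7 D2 control arrays exceeded the floor of 6. Epha10 had changes of -0.32 in D1 (adjusted p = 0.0119) and -0.24 in D2 neurons (adjusted p = 0.0307). In D2 neurons the semaphorins Sema3f and Sema6b had changes of -0.44 and -0.32 (adjusted p = 0.0341 and 0.0304), the ephrin Efna3 one of -0.30 (adjusted p = 0.027) and the netrin receptor Unc5c one of -0.28 (adjusted p = 0.0215). The glial covariate ended the D2 calls of Sema3f (adjusted p = 0.476), Sema6b (0.196), Unc5c (0.0846), Epha10 (0.409), Sema4a (0.203) and Sema4g (0.125). Counting D2 mutant cocaine replicate 4 as a control ended those of Sema3f (0.073), Sema6b (0.0726), Efna3 (0.0933), Unc5c (0.372), Epha10 (0.172) and Sema4g (0.206). Without the 3 arrays with high Ttr, those of Sema3f (0.0696) and Efna3 (0.0543) were lost. Epha7 levels did not overlap between D2 mutants (10.32 to 10.59) and D2 controls (9.77 to 10.31), but its change of 0.31 did not pass (adjusted p = 0.0855).

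**Figure D4:**
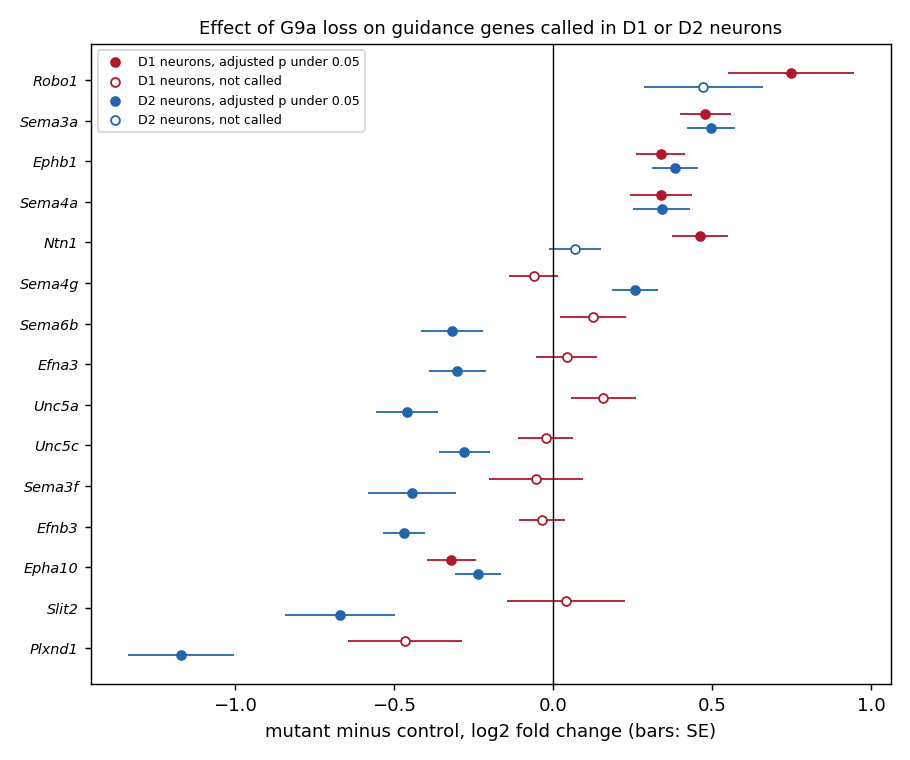
Log2 fold change of mutant over control (x axis, bars are SE) in D1 and D2 neurons for the 15 members called in either. Filled points passed the adjusted p threshold. Plxnd1 lies furthest to the left in D2 neurons and Robo1 furthest to the right in D1 neurons. The D2 point of Sema4g rests on D2 control levels that lay mostly at or below 6.

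Several of these smaller calls were lost in some of the fits that left out 1 array. In D1 neurons Sema4a lost its call in 17 of the 27 fits that left out 1 array and Epha10 in 2, both most strongly without D1 control saline replicate 2 (0.25, adjusted p = 0.346, and -0.31, adjusted p = 0.0745). In D2 neurons Sema4a lost it in 1 fit and Efna3 in 7, both most strongly without D2 control saline replicate 3 (adjusted p = 0.0503 and 0.0753), Sema3f in 6 (0.137, without D2 control saline replicate 1) and Sema4g in 3 (0.0733, without D2 mutant saline replicate 1), while Sema6b lost it in 8 (0.0894), Epha10 in 8 (0.123) and Unc5c in 2 (0.0705), each most strongly without D2 mutant saline replicate 3.

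Markers of other cells moved with G9a loss in D2 neurons. Of the 8 tested oligodendrocyte markers, 6 rose in D2 mutants and none changed in D1 mutants, and their summed level was 5730 to 7476 in D2 mutants and 2921 to 5634 in D2 controls. The 2 tested cholinergic markers summed to 506 to 712 in D2 mutants and 208 to 505 in D2 controls, and 1 of them rose. Of 8 tested D1 MSN markers, 4 rose in D2 mutants. The 2 tested cortical markers summed to 170 to 243 in D2 mutants and 50.7 to 114 in D2 controls, without overlap, and 1 of them rose. Of the 3 tested ependymal and choroid plexus markers of 5 listed, 2 rose in D2 mutants and 1 in D1 mutants. They summed to 989 to 1669 in D2 mutants and 655 to 3413 in D2 controls, and to 818 to 6085 in D1 mutants and 597 to 1503 in D1 controls. With the glial covariate, 6 members were called in D2 neurons, 1 upward and 5 downward. Counting D2 mutant cocaine replicate 4 as a control also left 6, split 3 and 3. The shares of all genes called in these fits are not given here, so the drops are not read as results about the members. The part of the cholinergic, D1 MSN, cortical and ependymal markers was not tested.

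The other genes of the pathway were counted from lists that cover guidance molecules outside the named families and intracellular effectors. Of 32 tested members of 36 other ligands, receptors and adhesion molecules, 8 were higher and 8 lower in D1 than in D2 mutants, and 5 and 5 in controls. The shares called, 50% in mutants and 31.2% in controls, stood beside 42.4% and 29% of all genes. Chl1, an adhesion molecule of the L1 family, was 0.71 higher in D1 controls than in D2 controls (adjusted p = 1.65e-05), and Dscam was 0.48 higher (adjusted p = 0.000197). Dscaml1 differed by -0.92 in mutants (adjusted p = 2.37e-06) and by -0.88 in controls (adjusted p = 2.21e-05). With G9a loss, Flrt2, a membrane ligand of Unc5 receptors, was the 1 gene of this list called in D1 neurons (1.19, adjusted p = 0.00054), a share of 3.12% against 4.22% of all genes. In D2 neurons 2 rose and 3 fell, 15.6% against 12.2% of all genes, with Chl1 at 0.65 (adjusted p = 3.63e-05), Dscam at 0.29 (adjusted p = 0.0203) and the contactin Cntn6 at -0.50 (adjusted p = 0.00425). Flrt2 was 1.04 higher in D1 than in D2 mutants (adjusted p = 0.000178), and the myelin inhibitor Omg differed by -0.39 (adjusted p = 0.000118).

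Of 48 tested effectors of 52 listed, 10 were higher and 8 lower in D1 than in D2 mutants, and 9 and 4 in controls. The shares called were 37.5% and 27.1%, against the same 42.4% and 29% of all genes. The actin regulators Evl and Enah differed by -0.67 and 0.49 in controls (adjusted p = 4.29e-05 and 0.000243). The kinase Src differed by 0.67 in mutants (adjusted p = 1.25e-08), where the GTPase Rnd1 (0.57, adjusted p = 2.45e-05) and the exchange factor Arhgef12 (0.61, adjusted p = 4.18e-05) were also higher, and by 0.36 in controls (adjusted p = 0.0003). With G9a loss, the exchange factor Vav3 rose in D1 neurons (0.56, adjusted p = 0.000453) and no effector fell there, a share of 2.08% against 4.22% of all genes. In D2 neurons the share was 6.25% against 12.2%, where Tiam2 and Rasa1 rose (0.38 and 0.29, adjusted p = 0.0267 and 0.0271) and Src was called at -0.20 (adjusted p = 0.0473).

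Repeated cocaine gave no call among the 53 guidance genes by limma in any of the 4 groups, nor in the difference of the cocaine effect between mutants and controls. Over all genes the share called was 0.0915% in D1 mutants, 0.0666% in D1 controls, 0% in D2 mutants and 0.133% in D2 controls, and 0% for both differences. At an unadjusted p under 0.05 there were 5 members in D1 mutants, 7 in D1 controls, 4 in D2 mutants and 11 in D2 controls. These were 9.43%, 13.2%, 7.55% and 20.8% of members, against 11.8%, 11.7%, 4.89% and 9.40% of all genes. For the differences there were 11 members in D1 and 4 in D2 neurons, 20.8% and 7.55% against 11.2% and 4.85% of all genes. The median log2 change of the members was 0.04, 0.04, -0.04 and -0.11 in D1 mutants, D1 controls, D2 mutants and D2 controls, against 0.04, 0.03, 0.00 and -0.05 over all genes. Array weights, which give less weight to arrays that deviate from their group, called 1 member in D1 mutants (Sema4a), 2 in D1 controls (Nrp1 and Sema4c) and Sema4a for the difference in D1. The share of all genes called with array weights is not given here.

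Nrp1 was among the 3 smallest p-values in 3 of the 4 groups. In D1 controls its levels were 6.78, 7.05, 6.35 and 6.86 with cocaine and 5.99 and 6.36 with saline, overlapping at the edge, a difference of 0.59 ± 0.20 (adjusted p = 0.244). In D2 mutants they were 7.58, 7.61, 7.91 and 7.66 with cocaine and 7.42, 6.96 and 7.37 with saline, which did not overlap, a difference of 0.44 (adjusted p = 0.98). In D2 controls they were 7.53, 7.67, 7.36 and 8.08 with cocaine and 6.77, 7.21 and 7.45 with saline, which overlapped, a difference of 0.52 (adjusted p = 0.3). In D1 mutants the difference was -0.07 (adjusted p = 0.911).

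In D2 mutants Plxnd1 had the smallest p of the members. Its levels were 7.82, 7.24, 7.25 and 7.25 with cocaine and 7.79, 8.36 and 8.42 with saline, overlapping through a single cocaine array. The log2 difference was -0.80 ± 0.24 (unadjusted p = 0.0025, adjusted p = 0.636). Efnb3 differed by -0.25 there (adjusted p = 0.98) and by -0.31 in D2 controls (adjusted p = 0.223), where levels of 10.18, 10.05, 10.22 and 10.09 with cocaine lay below 10.40, 10.36 and 10.58 with saline. Ephb1 differed by -0.32 in D2 controls (adjusted p = 0.249).

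In D1 mutants the smallest p-values belonged to Sema4a, Efnb3 and Unc5a. Sema4a had levels of 8.21, 7.75, 7.90 and 7.71 with cocaine and 8.21, 8.46 and 8.38 with saline, a difference of -0.46 ± 0.13 (adjusted p = 0.157), which was -0.31 with the mean of its probe sets (adjusted p = 0.288) and -0.15 with its other probe set (adjusted p = 0.713). Efnb3 and Unc5a differed by 0.28 and 0.32 (adjusted p = 0.243 and 0.348). In D1 controls Sema4c and Sema4f followed Nrp1, with differences of 0.57 and 0.43 (adjusted p = 0.265 and 0.285). For the difference of the cocaine effect, mutants minus controls, the smallest p-values in D1 neurons were those of Sema4a (-0.75, adjusted p = 0.205), Unc5c (-0.47, 0.315) and Unc5b (-0.35, 0.333), and the other Sema4a probe set gave -0.07 (adjusted p = 0.933). In D2 neurons they were those of Plxna3 (0.29), Plxnc1 (-0.37) and Ephb1 (0.32), each at an adjusted p of 0.952.

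**Figure D5:**
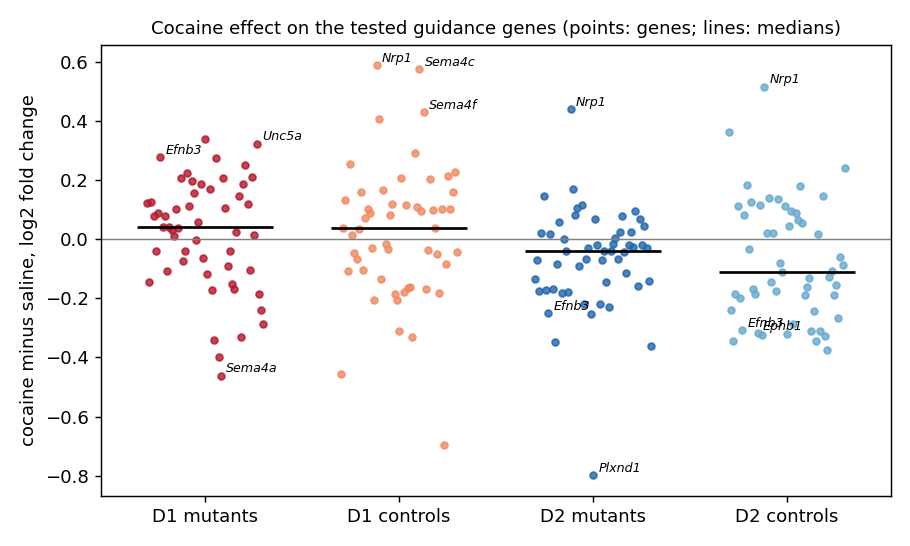
Log2 fold change of cocaine over saline (y axis) for each of the 53 tested members in the 4 groups, with points as genes and lines as medians. The 3 genes with the smallest p are named in each group. Most points lie within 0.4 of 0, Nrp1 is at the upper edge in 3 groups and Plxnd1 is lowest in D2 mutants.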

How the data were processed

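Ribosome-bound RNA was hybridised to 27 Affymetrix Mouse Genome 430 2.0 arrays, 1 per sample. The authors deposited log2 values of 45101 probe sets, which the submitters' processing notes credit to RMA (robust multi-array averaging) and to Expression Console 1.1 of Affymetrix. RMA compresses differences near background. The number of arrays limits the precision.

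Gene names come from the 2016 array annotation: 34945 probe sets had 1 symbol, 932 several and 9160 none. For each symbol the brightest probe set on average was used. All 68 members matched a RefSeq gene, and they had 152 probe sets. Genes over 6 in at least 3 arrays were tested (12017 genes).

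All arrays were fitted in limma 3.58.1 (R 4.3.3), with 1 mean for each of 8 groups, drugs weighted equally, and Benjamini-Hochberg adjustment within each of 11 comparisons. The fit was tested on simulated data. Comparisons in 1 neuron type share arrays with each other. No 2 arrays were duplicates (smallest mean difference 0.137). RNA quality was compared by exact permutation tests with scipy 1.17.1, and their adjusted p was 0.906 for each.

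The members, lists and tests were chosen with earlier results of these data known. Named were all called members (the 15 largest where more passed in a direction), the 3 smallest p-values where none passed, and the pairs of Plxnd1 and Sema3e, Nrp1 and Nrp2, and Dcc and Ntn1. Alternatives covered probe set choice, filter, scaling, moderation, array weights, a replicate block, covariates, the array with conflicting labels, and leaving out arrays.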

Additional observations from a re-analysis of the deposited data

Results flagged for a closer look

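In 6 of the 140 groups of 4 arrays examined over 35 members, 1 array stood apart from the other 3, where chance alone gives about 1 in 20. Epha10 was 7.34 in D1 mutant cocaine replicate 2, against 7.10 to 7.12 in the other 3. Ephb1 was 9.23 in D2 control cocaine replicate 1, against 9.60 to 9.67. Plxnd1 was 7.82 in D2 mutant cocaine replicate 1, against 7.24 to 7.25. Sema3b was 6.44 in D2 control cocaine replicate 2, against 5.84 to 5.91. Unc5b was 6.92 in D2 control cocaine replicate 3, an array with high Ttr, against 6.82 to 6.83. Unc5d was 5.93 in D1 control cocaine replicate 4, against 5.09 to 5.17. The gap to the nearest array, as a share of the range of the 4, was 0.918 for Epha10, 0.840 for Ephb1, 0.984 for Plxnd1, 0.874 for Sema3b, 0.971 for Unc5b and 0.902 for Unc5d.

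The effect of G9a loss differed between D2 and D1 neurons for Efnb3 (-0.43, D2 minus D1, log2) and Unc5a (-0.62), by the test of the difference itself.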

How the results depend on the processing

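Over 40 alternatives, 27 of which left out 1 array, no member result that was called changed direction to a call the other way. Of 100 member results, 19 lost their call with the glial covariate and 13 with D2 mutant cocaine replicate 4 counted as a control, while array weights added 6 calls and removed 2. The glial covariate gave 15 called members between D1 and D2 mutants (main 25), 6 for G9a loss in D2 neurons (main 13) and 0 for the difference of G9a effects (main 2). Counting that replicate as a control gave 6 and 0 for the last 2. Array weights gave 20 for G9a loss in D2 neurons, 4 for the difference of G9a effects, 1 for cocaine in D1 mutants, 2 for cocaine in D1 controls and 1 for the difference of cocaine effects in D1 neurons. Leaving out 1 array gave 14 to 20 called members between D1 and D2 controls and 19 to 29 between D1 and D2 mutants. It gave 2 to 6 for G9a loss in D1 neurons (2 without D1 control saline replicate 2), 8 to 17 in D2 neurons (8 without D2 control saline replicate 3), 0 to 3 for the difference of G9a effects, and 0 to 0 for each cocaine comparison. The shares of all genes called under these alternatives are not given here, and the cause of these shifts was not tested. Of 83 same-number pairs of arrays, 25 had deviations correlated above 0.1 (range -0.39 to 0.47, median 0.01). Pairs with different numbers were not compared, so whether replicate numbers pair the arrays was not tested. The replicate block changed no call and left the counts at 19 and 25 between neuron types, 6 and 13 for G9a loss, 2 for their difference and 0 for cocaine. The share of all called genes that were higher moved from 41% to 52.6% between D1 and D2 controls and from 39.1% to 52.2% between mutants with cyclic loess, and from 68.8% to 51.4% for G9a loss in D2 neurons with median centring. No member call changed direction there. The floor limits what can be said of the 15 untested members.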
